A study of Mus musculus with 6 samples.

Results

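The patterning homeobox and Zic transcription factors comprised 66 genes, all rows of the count tables whose symbols belonged to the Irx, Meis, Pbx, POU, Pax, Zic, Cux, Onecut, Zfhx, Lmx1, Nkx2 or Pitx names, to Lhx1, Lhx3, Lhx4, Lhx5 and Lhx8, or to Otx1. Pou4f1 was not among them. They were chosen by name and not by their values, and made up 66 of 32531 gene rows. Of these, 46 held enough reads to be tested, 13 held reads but were not tested, and 7 had 0 reads in all libraries. The members fell into 9 groups of 5 Zic genes, 7 Meis and Pbx genes, 8 Cux, Onecut and Zfhx genes, 13 POU genes, 7 Lhx and Lmx1 genes, 7 Nkx2 genes, 4 Pitx and Otx1 genes, 9 Pax genes and 6 Irx genes.

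The libraries came from the thalamus of adult control mice that had no treatment. All belonged to the Slc17a6-EGFP/Rpl10a line JX883, a line named for Slc17a6, which encodes the glutamate transporter VGLUT2 of thalamic relay neurons, and for ribosomal protein Rpl10a joined to EGFP. In translating ribosome affinity purification (TRAP), tagged polysomes are pulled from homogenised tissue with anti-EGFP antibodies, and the RNA of that pulldown gave 3 IP libraries. The 3 Input libraries came from the same line and tissue, and all 6 libraries are from animals with the transgene. What drives the tag, beyond the name of the line, is not given in the labels. Input is treated here as whole-tissue RNA, although the labels give ribosome-bound RNA as its molecule too. The labels do not say how many animals gave a library, nor whether replicates 1, 2 and 3 were separate animals. The p-values therefore cover the spread between these libraries alone, and that spread may be technical. The comparison asked which of these regulators were at a higher or lower level in RNA on tagged ribosomes than in Input.

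Homeobox genes encode proteins that bind DNA through a homeodomain, and many of them divide the embryonic neural tube into territories along its length and from floor to roof. Meis and Pbx proteins belong to the TALE class, bind DNA together and act as partners of other homeodomain proteins. Zic proteins bind DNA through zinc fingers related to those of the Gli proteins, which carry Hedgehog signals. The thalamus forms between regions with their own sets of these factors, and adult neurons of a territory often keep a part of the embryonic set.

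Gene reads ranged from 44081149 to 54421395 per library, so 3 reads were worth between 0.0551 and 0.0681 CPM, the reads of a gene scaled to a common library size. Members took between 0.2065% and 0.325% of the gene reads of a library. Markers of thalamic relay neurons were present, with summed levels of 12179, 8085 and 7407 CPM in IP replicates 1, 2 and 3 and of 8309, 4994 and 2742 CPM in Input, and 4 of 11 were called higher in IP and 0 lower. Slc17a6 itself had 6490, 2193 and 2200 CPM in IP and 3153, 875 and 477 CPM in Input. The log2 fold change, 1.27, fell short without the replicate number in the model (edgeR adjusted p = 0.206), and it was 1.52 and passed with it (edgeR adjusted p = 0.000246).

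IP replicate 3 stood apart for these genes. Input replicate 3 stood apart over all features, and the members were not far from that share. In IP replicate 3, 14 of 43 members with at least 30 IP reads (32.56%) were at least 3 times above the higher of the other IP libraries, against 391 of 14849 features (2.633%). In IP replicates 1 and 2 this was 0 of 43 members, against 1.327% and 1.381% of features. At least 3 times below the lower of the other IP libraries were 8 members in IP replicate 1 (18.6%, against 2.647% of features). In IP replicate 2 these were 5 members (11.63%, against 2.653%), and in IP replicate 3 1 member (2.326%, against 1.509%). In Input replicate 3, 4 of 47 members (8.511%) were as far above the other Input libraries and 5 (10.64%) as far below, against 5.032% and 7.794% of features. The choroid plexus and ependyma markers summed to 1186 CPM there and to 29.6 and 30.4 CPM in the other Input libraries, and the striatum markers to 801 CPM, against 89.7 and 192 CPM. Replicates 1, 2 and 3 were also sequenced in different lanes, 3, 8 and 4, so that number and lane cannot be told apart.

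Within this set, Zic1, Zic2 and Pbx2 were higher in IP, by log2 0.79 to 0.94, while Lhx8, Nkx2-2, Onecut2, Pou2f1, Pou3f2, Meis1, Pax3 and Pax8 were lower. Pax3 and Pax8 passed the filter through Input alone, so they could only come out as lower, and they are counted in the share below. Abundant members stood on both sides, Zic1 and Zic2 higher and Onecut2 and Pou2f1, with means of 107 and 111 CPM in Input, lower. Several of the lower ones, Lhx8 and Nkx2-2 among them, were at very low levels in IP. The 3 higher members were 6.52% of the 46 tested, against 9.60% of all 16496 tested genes, and the 8 lower ones 17.4%, against 15.6% (edgeR quasi-likelihood test, Benjamini-Hochberg adjusted p under 0.05 over all tested genes). Both shares are near those of all genes, so the counts do not set the members apart. Scaling by library totals gave 1 higher and 8 lower. With the replicate number as a block, 6 members were called higher (13%, against 15.9% of all genes) and 14 lower (30.4%, against 19.2%). Without IP replicate 3, 1 member was called higher and 12 of 47 lower (25.5%), against 4.66% and 10.9% of all genes.

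The median log2 fold change of the 46 tested members was -0.25, against -0.04 over all tested genes. With the block these medians were -0.77 and -0.03. The IP and Input values did not overlap for 19 members, 5 of them higher in IP (10.9%, against 19.9% of all tested genes) and 14 lower (30.4%, against 25.0%). In bulk libraries such as these, fewer cells of a type and less RNA per cell cannot be told apart.

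**Figure D1:**
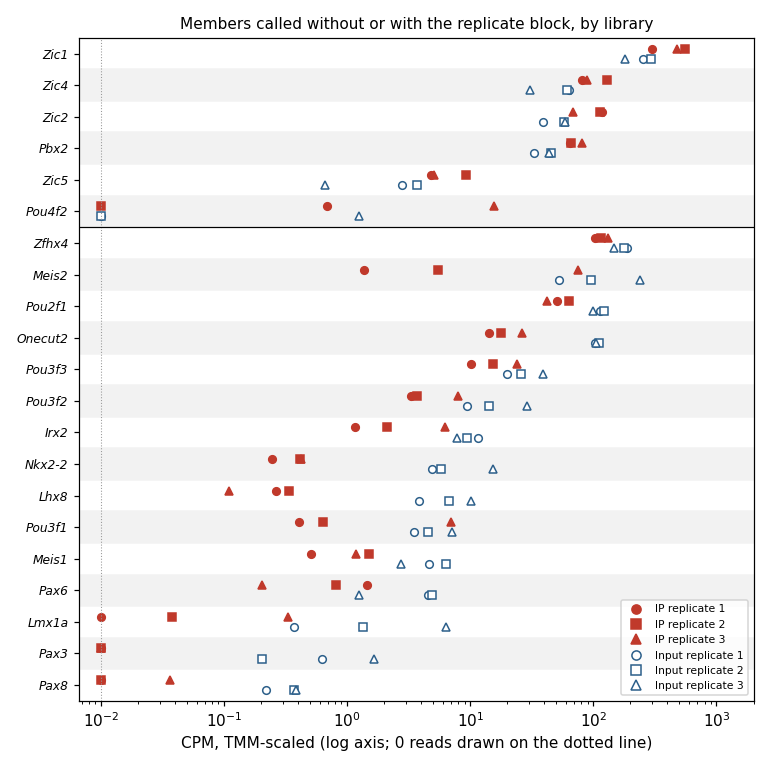
CPM of each member that passed the test without or with the replicate block, in each of the 6 libraries, on a log axis; filled red symbols are IP, open blue symbols Input, and symbol shapes give the replicate number. Members above the black line had higher fitted levels in IP and those below it lower ones; for Lhx8, Nkx2-2 and Onecut2 all 3 IP values lie well to the left of the Input values, whereas for Meis2 and Pou3f1 the IP replicate 3 triangle lies within the Input values.

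The Zic genes held the most abundant member of the IP libraries per exon length and 2 of the 3 rises. Zic1, a regulator of dorsal neural tube and cerebellar progenitors, had 302, 559 and 474 CPM in IP replicates 1, 2 and 3 and 254, 295 and 179 CPM in Input. All 3 IP values lay above all 3 Input values, with means of 445 ± 131 CPM and 243 ± 58.7 CPM (SD, n = 3). The log2 fold change was 0.87 ± 0.27 (SE; edgeR adjusted p = 0.0445), and 0.86 ± 0.20 with the block (edgeR adjusted p = 0.00674). The call was lost in 5 of the 6 fits that left out 1 library, all but that without IP replicate 1, with edgeR adjusted p up to 0.154 without IP replicate 2. It was also lost with library totals (edgeR adjusted p = 0.075), upper-quartile scaling (0.0761) and a filter at 1 CPM (0.0552).

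Zic2, which patterns the forebrain midline and directs the uncrossed axons of retinal ganglion cells, had 118, 112 and 68.0 CPM in IP and 38.7, 57.6 and 59.0 CPM in Input. The groups did not overlap, although IP replicate 3 lay close to the highest Input value. Zic2 rose by log2 0.94 ± 0.27 (edgeR adjusted p = 0.0326). It was called without IP replicate 3 and without Input replicate 3 and lost in the other 4 fits without 1 library, with edgeR adjusted p up to 0.112 without IP replicate 2.

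Zic4, the close neighbour of Zic1, had 80.6, 130 and 89.3 CPM in IP and 63.6, 61.5 and 30.5 CPM in Input. Its groups did not overlap, with means of 99.9 ± 26.3 CPM and 51.9 ± 18.6 CPM (SD, n = 3). The log2 fold change of 0.95 ± 0.31 was of the size of those of Zic1 and Zic2 but did not pass (edgeR adjusted p = 0.0556). With the block the value was 0.99 ± 0.22, past the threshold (edgeR adjusted p = 0.00603), and without Input replicate 1 it passed without the block (edgeR adjusted p = 0.048).

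Zic5, the neighbour of Zic2, was far less abundant, with 4.85, 9.25 and 5.09 CPM in IP and 2.78, 3.73 and 0.659 CPM in Input. Every IP value exceeded every Input value. Its difference of log2 1.42 ± 0.64 was not called (edgeR adjusted p = 0.136), and with the block it was 1.65 ± 0.54 and passed (edgeR adjusted p = 0.0363). By replicate number, Zic1, Zic2, Zic4 and Zic5 were higher in IP in 3 of 3 pairs.

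Beside the Zic values stand those of the other cell types that the tissue could hold. Meningeal fibroblast markers, of a tissue in which Zic genes are known to be expressed, summed to 2.19, 3.76 and 3.99 CPM in IP and 47.8, 50.4 and 169 CPM in Input, and 4 of 6 were called lower in IP. In IP replicates 1 and 2, 3 and 2 of the 6 had 0 reads. Habenula markers summed to between 22.6 and 37.4 CPM in IP and between 91.2 and 301 CPM in Input, with 5 of 6 called lower. Their part in the Zic values was not tested.

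These 4 Zic genes lie in 2 pairs, each with its genes on opposite strands. Zic1 lies on the reverse strand of chromosome 9 from 91358058 to 91365810 (GENCODE M21 on GRCm38, which mm10 denotes), and Zic4 on the forward strand from 91362413 to 91389348. Their exons share 60 bases on opposite strands, 1.05% of the exon length of Zic1 and 0.581% of that of Zic4. The strand setting of the counting is not given in the sources used here, but a stretch of this size holds few of the reads of either gene if coverage is even. On chromosome 14, Zic5 occupies the reverse strand from 122456795 to 122465677 and Zic2 the forward strand from 122475435 to 122479852, with 9.8 kb between them.

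Start-site windows of Zic genes that neighbour each other are printed to show the sequence at these paired loci. Each holds 300 bases, 250 before and 50 after the annotated RefSeq start (GRCm38.p6), 5′ to 3′ on the gene's strand, at chr9:91365719-91366018 for Zic1 (reverse strand), chr9:91368722-91369021 for Zic4 (forward strand) and chr14:122465609-122465908 for Zic5 (reverse strand). Capitals mark a match to a searched motif.
Zic1: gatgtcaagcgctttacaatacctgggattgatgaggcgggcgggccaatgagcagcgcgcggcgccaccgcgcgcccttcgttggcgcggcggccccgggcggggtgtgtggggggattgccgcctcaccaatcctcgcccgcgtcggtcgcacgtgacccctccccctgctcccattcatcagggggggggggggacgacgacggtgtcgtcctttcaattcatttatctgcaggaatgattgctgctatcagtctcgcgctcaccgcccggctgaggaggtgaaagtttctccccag
Zic4: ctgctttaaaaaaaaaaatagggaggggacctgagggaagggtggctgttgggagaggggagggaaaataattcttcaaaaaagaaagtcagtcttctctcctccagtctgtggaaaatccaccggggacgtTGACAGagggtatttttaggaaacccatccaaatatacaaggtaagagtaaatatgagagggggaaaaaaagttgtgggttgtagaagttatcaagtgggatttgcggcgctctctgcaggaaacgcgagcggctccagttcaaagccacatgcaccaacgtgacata
Zic5: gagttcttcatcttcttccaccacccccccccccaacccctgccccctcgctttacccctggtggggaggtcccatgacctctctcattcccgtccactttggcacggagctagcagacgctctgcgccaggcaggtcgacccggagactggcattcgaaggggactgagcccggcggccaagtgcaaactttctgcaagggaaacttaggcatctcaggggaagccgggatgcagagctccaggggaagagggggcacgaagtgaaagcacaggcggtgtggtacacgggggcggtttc
The motifs searched, on both strands and with overlaps between motifs allowed, were TGACAG, a core bound by Meis proteins, CAGCAGG, a core known from Zic binding, and TATAAA, the TATA box. Of 32851 windows of the same length, 19.2% held TGACAG, 10.5% CAGCAGG and 13.6% TATAAA. The Zic4 window held 1 match, to TGACAG, and those of Zic1 and Zic5 none. The Zic1 window held 31 CpG dinucleotides and was 65.3% G and C, that of Zic5 15 and 62.7%, and that of Zic4 8 and 46.0%, against medians of 7 and 52.7% over all windows. The Zic4 window lies inside the GENCODE gene model, so it may not be the start used in these cells.

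**Figure D2:**
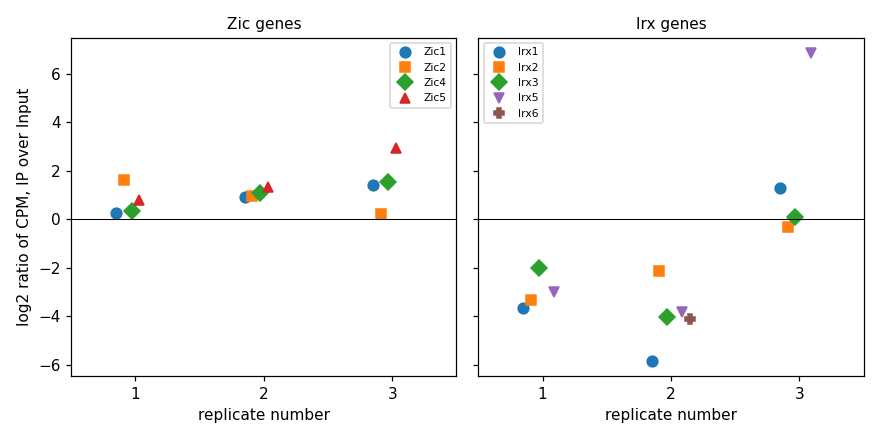
Log2 ratio of IP over Input CPM for each replicate number, for Zic1, Zic2, Zic4 and Zic5 (left) and the Irx genes (right), with 0 as a black line; a ratio is drawn only where both libraries held reads. The Zic genes shown lie above 0 at all 3 numbers, whereas Irx1 and Irx5 lie below 0 in replicates 1 and 2 and above it in replicate 3.

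Among the TALE genes, 1 Pbx gene was higher and 1 Meis gene lower in IP. Pbx2, a widely expressed partner of Hox and Meis proteins, had 64.1, 65.9 and 80.9 CPM in IP and 32.9, 45.7 and 43.3 CPM in Input. Well apart, the groups had means of 70.3 ± 9.21 CPM and 40.6 ± 6.80 CPM (SD, n = 3), and the log2 fold change was 0.79 ± 0.21 (edgeR adjusted p = 0.0247). It was called without IP replicate 1 and without Input replicate 3 and lost in the other 4 fits without 1 library, with edgeR adjusted p up to 0.098 without IP replicate 3, and it was lost with library totals (0.0517). Pbx2 lies on chromosome 17 from 34591266 to 34597400 on the forward strand. It shares 6.24% of its exon bases with Gpsm3 on the same strand, so reads in that stretch cannot be given to 1 of these genes.

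Pbx3 had 26.4, 35.6 and 52.5 CPM in IP and 39.2, 39.9 and 46.2 CPM in Input, and its groups overlapped. Pbx4 was low, with 4.83, 3.03 and 8.41 CPM in IP and 3.52, 4.18 and 3.11 CPM in Input, and also overlapped. Neither passed (edgeR adjusted p = 0.762 and 0.402).

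Meis1, a cofactor that is known from blood stem cells and limb and eye development, had 0.507, 1.505 and 1.18 CPM in IP and 4.63, 6.35 and 2.75 CPM in Input. Each IP value was below each Input value, and the log2 fold change was -2.10 ± 0.60 (edgeR adjusted p = 0.0339). The call was lost in 5 of 6 fits without 1 library, all but that without Input replicate 3, with edgeR adjusted p up to 0.138 without Input replicate 2. Meis1 lies on the reverse strand of chromosome 11 from 18879817 to 19018985.

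Meis2, a marker of striatal and other forebrain neurons and of parts of the midbrain, differed widely between IP libraries. It had 1.38, 5.44 and 75.2 CPM in IP and 52.7, 96.5 and 237 CPM in Input, so that IP replicate 3 lay above Input replicate 1. By replicate number it was lower in IP each time, and with the block the log2 fold change was -3.64 ± 0.55 (edgeR adjusted p = 0.00072). Without the block it was -2.24 ± 1.19 and missed the threshold (edgeR adjusted p = 0.205). Leaving out IP replicate 3 gave -5.23 (edgeR adjusted p = 0.00832). The striatum markers, highest in Input replicate 3 as Meis2 was, summed to 89.8, 59.8 and 153 CPM in IP and 89.7, 192 and 801 CPM in Input. The markers of GABAergic neurons summed to 133, 184 and 308 CPM in IP and 1072, 1122 and 1659 CPM in Input. Their part in the Meis2 values was not tested.

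Meis3 showed no such fall. It had 36.0, 40.2 and 46.4 CPM in IP and 20.6, 25.2 and 49.8 CPM in Input, with Input replicate 3 above all IP libraries, and a log2 fold change of 0.36 ± 0.33 that was not called (edgeR adjusted p = 0.465). Without Input replicate 3 it passed as higher in IP (edgeR adjusted p = 0.0301).

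The start-site windows of Pbx2 and Meis1 are shown because these Meis and Pbx genes were called in opposite directions without the block; they lie at chr17:34592009-34592308 (forward strand) and chr11:19018920-19019219 (reverse strand).
Pbx2: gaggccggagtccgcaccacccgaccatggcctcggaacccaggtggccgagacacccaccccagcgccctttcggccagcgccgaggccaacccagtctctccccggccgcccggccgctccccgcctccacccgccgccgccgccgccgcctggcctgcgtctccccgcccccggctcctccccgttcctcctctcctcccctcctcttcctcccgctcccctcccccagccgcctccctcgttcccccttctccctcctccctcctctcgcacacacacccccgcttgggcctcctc
Meis1: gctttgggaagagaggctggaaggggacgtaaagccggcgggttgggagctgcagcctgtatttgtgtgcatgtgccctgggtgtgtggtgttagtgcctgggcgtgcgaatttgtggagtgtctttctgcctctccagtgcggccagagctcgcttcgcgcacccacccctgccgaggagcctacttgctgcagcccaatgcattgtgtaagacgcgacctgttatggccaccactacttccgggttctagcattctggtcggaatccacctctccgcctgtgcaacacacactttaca
Neither window held a match to the 3 motifs above. The Pbx2 window was 76.0% G and C with 29 CpG dinucleotides, and that of Meis1 58.3% with 15. As with Zic4, the Pbx2 window lies inside the GENCODE gene model and may not hold the start used in these cells.

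Of the Cux, Onecut and Zfhx genes, Onecut2 alone passed without the block. Onecut2, a cut-homeodomain factor of motor, retinal and other projection neurons, had 14.2, 17.8 and 26.1 CPM in IP and 103, 112 and 105 CPM in Input. These were among the clearest separated values of the set, with means of 19.4 ± 6.11 CPM and 107 ± 4.83 CPM (SD, n = 3). Onecut2 fell to a log2 fold change of -2.46 ± 0.25 (edgeR adjusted p = 0.000516), and the call was kept in all 6 fits without 1 library, with edgeR adjusted p up to 0.00475. Onecut1 had 0.304, 0.188 and 2.24 CPM in IP and 0.522, 1.19 and 1.04 CPM in Input, and Onecut3 had 1.91, 2.31 and 11.1 CPM in IP and 1.11, 2.03 and 4.88 CPM in Input. Both overlapped between the groups and were highest in IP replicate 3, and neither passed (edgeR adjusted p = 0.996 and 0.436). Onecut1 shares 52.8% of its exon bases with Gm20649, a gene on the same strand with no row of its own. Reads in that stretch cannot be given to 1 of these genes.

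Zfhx4, a large zinc finger and homeodomain protein, had 103, 115 and 132 CPM in IP and 187, 176 and 147 CPM in Input. The groups did not overlap. A log2 fold change of -0.54 ± 0.18 just missed the threshold without the block (edgeR adjusted p = 0.0614) and passed with it, at -0.54 ± 0.17 (edgeR adjusted p = 0.0281). Without Input replicate 3 it passed too (edgeR adjusted p = 0.0444).

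Zfhx3, which is known from the circadian clock of the suprachiasmatic nucleus, had 506, 613 and 518 CPM in IP and 550, 580 and 339 CPM in Input. Cux1, an upper-layer cortical factor that is also widely expressed, had 226, 278 and 291 CPM in IP and 196, 230 and 216 CPM in Input. Zfhx2 had 58.9, 107 and 108 CPM in IP and 71.9, 117 and 141 CPM in Input. For all of them the groups overlapped. Exons of Zfhx2os cover 17.9% of the exon bases of Zfhx2 on the opposite strand, and the strand setting is not known. Cux2 was nearly flat, with 50.4, 53.5 and 61.3 CPM in IP and 52.4, 57.4 and 52.7 CPM in Input. Log2 fold changes of these 4 genes lay between -0.27 and 0.31, and none passed (edgeR adjusted p between 0.234 and 0.941).

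Among the POU genes, Pou2f1 and Pou3f2 were called lower in IP and none higher without the block. Pou2f1 (Oct-1), which is expressed in most tissues, had 51.0, 63.1 and 41.8 CPM in IP and 113, 121 and 99.1 CPM in Input. Its values did not overlap, with a log2 fold change of -1.09 ± 0.21 (edgeR adjusted p = 0.00692). All 6 fits without 1 library kept the call, with edgeR adjusted p up to 0.0329. Exons of Cd247, a T cell receptor chain, cover 18.1% of the exon bases of Pou2f1 on the opposite strand, and reads there cannot be separated without a known strand setting.

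Of the class III POU genes, neural factors of progenitors and young neurons, Pou3f2 passed without the block, and Pou3f1, Pou3f3 and Pou3f4 did not. Pou3f2 (Brn2) had 3.29, 3.67 and 7.91 CPM in IP and 9.46, 14.1 and 28.8 CPM in Input, in each group highest in replicate 3 but without overlap. Its log2 fold change was -1.82 ± 0.51 (edgeR adjusted p = 0.0308). It was called without IP replicate 3 and without Input replicate 1 and lost in the other 4 fits without 1 library, with edgeR adjusted p up to 0.104 without IP replicate 2. Pou3f3 (Brn1) had 10.1, 15.3 and 24.1 CPM in IP and 19.8, 25.9 and 38.8 CPM in Input, lower in IP at each number although the groups overlapped. With the block its log2 fold change was -0.81 ± 0.21 (edgeR adjusted p = 0.0143), and without it -0.77 ± 0.37 (edgeR adjusted p = 0.159).

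Pou3f1 (Oct6) had 0.406, 0.639 and 7.01 CPM in IP and 3.501, 4.50 and 7.15 CPM in Input, and Pou3f4 had 0.101, 0.339 and 1.93 CPM in IP and 2.24, 2.80 and 2.04 CPM in Input. In both, IP replicates 1 and 2 were far below Input and IP replicate 3 reached or neared the level of the Input libraries. Pou3f1 passed as lower with the block, at log2 -1.99 ± 0.70 (edgeR adjusted p = 0.048), but not without it, at -0.91 ± 0.96 (edgeR adjusted p = 0.535). Pou3f4 passed in neither fit (edgeR adjusted p = 0.273 and, with the block, 0.0941). Without IP replicate 3, Pou3f1 had a log2 fold change of -3.26 (edgeR adjusted p = 0.0179) and Pou3f4 of -3.40 (edgeR adjusted p = 0.041).

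Pou4f2 (Brn3b), a factor of retinal ganglion cells and some midbrain neurons, rested on replicate 3 as well. It had 34, 0 and 850 reads in IP and 0, 0 and 55 reads in Input, so 850 of its reads came from a single library. Its log2 fold change was 3.71 ± 2.21 and did not pass (edgeR adjusted p = 0.254). With the block it was 4.27 ± 0.97 and passed (edgeR adjusted p = 0.00781), whereas leaving out IP replicate 3 gave -0.28 (edgeR adjusted p = 0.952).

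Pou6f1 had 38.6, 34.5 and 55.3 CPM in IP and 38.7, 42.6 and 55.1 CPM in Input. Pou2f2 (Oct-2), best known from B cells, had 9.59, 8.73 and 16.9 CPM in IP and 6.78, 12.5 and 11.6 CPM in Input. Both overlapped between the groups and were not called (edgeR adjusted p = 0.832 and 0.75). Several POU genes were at or near 0: Pou2f3 had 71 of its reads in Input replicate 3 and at most 8 in any other library, Pou4f3 had 3 reads in all, Pou5f2 had 6, all in Input, and Pou5f1 had 0.

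**Figure D3:**
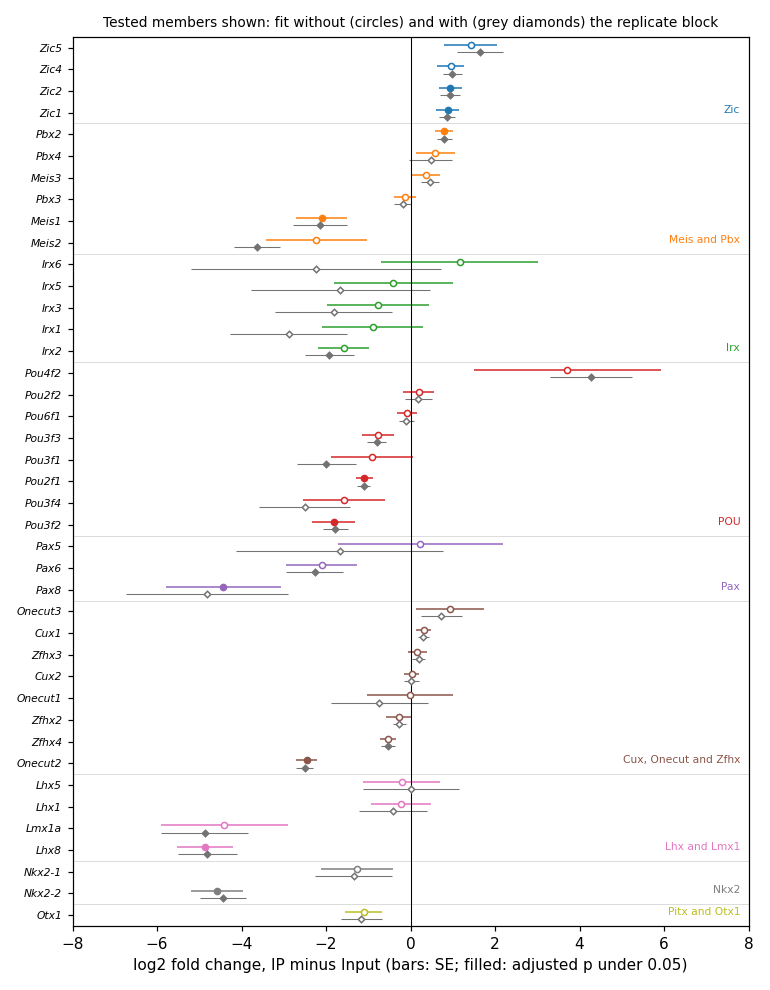
Log2 fold change of IP minus Input with its SE for the tested members shown, without Pax3, ordered by group; circles give the fit without and grey diamonds the fit with the replicate block, and filled symbols have an adjusted p under 0.05. Zic1, Zic2 and Pbx2 are filled on the right and Onecut2, Pou2f1, Lhx8 and Nkx2-2 on the left in both fits, and several Irx genes have wide bars.

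Lhx8, a LIM-homeodomain factor of basal forebrain cholinergic and other ventral forebrain neurons, had 0.264, 0.339 and 0.110 CPM in IP and 3.87, 6.73 and 10.2 CPM in Input. No IP library held many reads, with 13, 18 and 6 reads against 178, 329 and 451 in Input. Lhx8 fell to a log2 fold change of -4.86 ± 0.66 (edgeR adjusted p = 0.00176), and the call was kept in all 6 fits without 1 library. Lhx8 lies on chromosome 3 from 154306294 to 154330659.

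Lmx1a, a roof plate and midbrain dopamine factor, had 0, 0.0376 and 0.331 CPM in IP and 0.370, 1.35 and 6.31 CPM in Input. Input replicate 3 held 278 of its 361 Input reads. A log2 fold change of -4.40 ± 1.5 just missed the threshold (edgeR adjusted p = 0.0623), and that of -4.87 ± 1.03 with the block met it (edgeR adjusted p = 0.00456). Without Input replicate 3 the call failed by more (edgeR adjusted p = 0.211). It also passed without IP replicate 3 and without Input replicate 1. Choroid plexus and ependyma markers, also highest in Input replicate 3, summed to 2.88, 3.78 and 42.5 CPM in IP and 29.6, 30.4 and 1186 CPM in Input, and their part in the Lmx1a values was not tested.

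Lhx1 and Lhx5, LIM factors of early diencephalon and cerebellum, were near 1 CPM and overlapped between the groups. Lhx1 had 46, 135 and 36 reads in IP and 49, 90 and 86 in Input, and Lhx5 had 21, 22 and 50 reads in IP and 22, 65 and 10 in Input. Neither passed (edgeR adjusted p = 0.844 and 0.893). Lmx1b had 32 reads in IP replicate 3 and 0 in the other IP libraries, against 1, 15 and 5 in Input. Lhx3 had 27 IP and 3 Input reads, an Input to IP ratio of 12.5% (exact 95% interval 2.44% to 40.8%, counting error only). Lhx4 had 0 IP and 7 Input reads, at least 2.63-fold lower in IP with the IP sum set to a floor of 3 reads.

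Nkx2-2, which patterns the ventral neural tube and is kept in the oligodendrocyte lineage of the adult brain, had 0.243, 0.414 and 0.423 CPM in IP and 4.94, 5.83 and 15.3 CPM in Input. The IP libraries agreed closely, and the lowest Input library lay far above them. Nkx2-2 fell to a log2 fold change of -4.58 ± 0.62 (edgeR adjusted p = 0.00179), called in all 6 fits without 1 library. Markers of oligodendrocyte precursors summed to 5.50, 6.19 and 7.84 CPM in IP and 150, 148 and 150 CPM in Input, with 6 of 6 called lower. Markers of oligodendrocytes summed to between 161 and 287 CPM in IP and between 3367 and 5139 CPM in Input, with 10 of 10 called lower. Their part in the Nkx2-2 values was not tested. On chromosome 2 the gene runs from 147177546 to 147194243 on the reverse strand, and 9.67% of its exon bases overlap Nkx2-2os on the opposite strand.

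Nkx2-1, a ventral forebrain and hypothalamic factor, had 0.264, 1.67 and 0.791 CPM in IP and 2.41, 3.40 and 0.795 CPM in Input. Input replicate 3 fell within the IP values, and a log2 fold change of -1.27 ± 0.85 was not called (edgeR adjusted p = 0.308). Nkx2-9 was not tested, with 9, 9 and 2 reads in IP and 129, 156 and 2 reads in Input. In Input replicate 3 both of these neighbours on chromosome 12 were thus low while Nkx2-2 was at its highest. Nkx2-3, Nkx2-4, Nkx2-5 and Nkx2-6 had 0 reads.

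Otx1, a forebrain and midbrain factor, had 1.66, 3.24 and 3.81 CPM in IP and 7.39, 5.24 and 6.22 CPM in Input. Although the values did not overlap, the log2 fold change of -1.11 ± 0.45 did not pass without the block (edgeR adjusted p = 0.102) or with it (edgeR adjusted p = 0.0842). Pitx1 had 90 reads in IP replicate 3, 9 in Input replicate 2 and 0 elsewhere. Pitx3 had at most 12 reads in a library.

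The Pax genes were low in every library, and those called were lower in IP. Pax3, a dorsal neural tube and neural crest factor, had 0 reads in all IP libraries and 29, 10 and 73 reads in Input. This is at least 42.2-fold lower in IP with the IP sum set to a floor of 3 reads (edgeR adjusted p = 0.0151), and all 6 fits without 1 library called it. Pax8 had 2 IP reads, both in replicate 3, and 10, 18 and 17 Input reads, an IP to Input ratio of 3.94% (exact 95% interval 0.462% to 15.1%, counting error only). It passed without the block (edgeR adjusted p = 0.0429), not with it (edgeR adjusted p = 0.0744), and in 0 of 6 fits without 1 library, with edgeR adjusted p up to 0.153 without IP replicate 2. DESeq2 did not call it either (DESeq2 adjusted p = 0.0645). Both genes passed the filter through the Input libraries alone, where they had to be higher.

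Pax6, which is kept in zona incerta and other ventral thalamic neurons and in astrocytes, had 1.46, 0.809 and 0.202 CPM in IP and 4.52, 4.89 and 1.25 CPM in Input. In each group replicate 3 was lowest, and IP replicate 1 lay above Input replicate 3. Without the block the log2 fold change was -2.11 ± 0.84 (edgeR adjusted p = 0.0993), and with it -2.27 ± 0.68, past the threshold (edgeR adjusted p = 0.0238). Leaving out Input replicate 3 gave a call too (edgeR adjusted p = 0.0453). Astrocyte markers summed to 786, 433 and 302 CPM in IP and 2724, 1297 and 1394 CPM in Input, with 6 of 7 called lower. Slc1a2 alone gave 770, 418 and 288 CPM of the IP sums and 2323, 1073 and 1135 CPM of the Input sums. The part of astrocytes in the Pax6 values was not tested.

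Pax7, a midbrain tectum factor, had 0, 0 and 1 reads in IP and 0, 5 and 326 reads in Input, so 1 library held nearly all of them. The IP to Input ratio of 0.268% (exact 95% interval 0.00675% to 1.501%) compares summed reads and says nothing of the spread between libraries. Pax5 had 85 reads in IP replicate 3 and 0 in the other IP libraries, against 0, 31 and 31 in Input, and did not pass (edgeR adjusted p = 0.948). Pax2 had at most 21 reads in a library, in IP replicate 3, Pax1 had 1 read in all, and Pax4 and Pax9 had 0.

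The Irx genes, which encode TALE-class factors known to mark embryonic tissue behind the boundary between prethalamus and thalamus, split by replicate number. Irx1, Irx2, Irx3, Irx5 and Irx6 were lower in IP than in Input in replicates 1 and 2, and in replicate 3 Irx2 alone was lower. Irx2 had 1.16, 2.13 and 6.29 CPM in IP and 11.7, 9.35 and 7.74 CPM in Input, and its groups did not overlap. At log2 -1.59 ± 0.60 it was not called (edgeR adjusted p = 0.0867), and with the block it was, at -1.92 ± 0.57 (edgeR adjusted p = 0.024). Leaving out IP replicate 3 gave -2.53 and a call without the block (edgeR adjusted p = 0.0162). Irx1 had 0.324, 0.0752 and 5.26 CPM in IP and 4.15, 4.26 and 2.16 CPM in Input, with IP replicate 3 above every Input library. Its log2 fold change was -0.90 ± 1.19 (edgeR adjusted p = 0.629), and -4.12 without IP replicate 3, which passed (edgeR adjusted p = 0.0239).

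The other Irx genes were lower still. Irx5 had 13, 7 and 142 reads in IP and 97, 91 and 1 in Input. Irx3 had 4, 2 and 52 reads in IP and 15, 30 and 40 in Input, and Irx6 had 0, 1 and 87 reads in IP and 18, 16 and 0 in Input. All 3 overlapped between the groups and were not called (edgeR adjusted p between 0.685 and 0.863). Irx4 had 20 reads in IP replicate 3 and 0 in the other 5 libraries, and was not tested. The genes lie in 2 clusters, Irx1, Irx2 and Irx4 on chromosome 13 and Irx3, Irx5 and Irx6 on chromosome 8, and all 6 were highest within IP in replicate 3.

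IP replicate 3 was the highest IP library for 37 of the 52 members with more than 3 IP reads (71.2%), against 32.6% of 18070 features. IP replicate 2 was highest for 10 members and IP replicate 1 for 5, against 30.2% and 37.3% of features. The 14 members at least 3 times above the other IP libraries included Irx1, Irx3, Irx5, Irx6, Meis2, Onecut1, Onecut3, Pou3f1, Pou3f4, Pou4f2, Pax5, Pitx1 and Lmx1b. Of these, Meis2 reached 75.2 CPM and Pou4f2 15.6 CPM there, and the others named lay at or below 11.1 CPM. Zic1, Zic2, Zic4 and Zfhx3 were not at their highest in this library. Pax6 ran the other way, far below both other IP libraries, at 11 reads against 72 and 43.

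In 4 of 50 members with at least 30 reads, Irx1, Irx5 and Irx6 among them, the IP level was at least 2 times below the Input level in replicates 1 and 2 and at least 2 times above it in replicate 3, against 171 of 16945 features (1.009%). The same pattern with replicate 1 or 2 as the odd one held for 0 of 50 members, and for 0.2302% and 0.1475% of features. In Input replicate 3, Irx5 had 1 read, Nkx2-9 2 reads and Zic5 29 reads, each far below the other Input libraries. Among the homeobox genes outside the set, Barhl2, a factor of retinal, subthalamic and other diencephalic neurons, had 3.85, 5.94 and 51.3 CPM in IP and 2.001, 5.06 and 5.31 CPM in Input, and Barhl1 had 0.243, 0.132 and 6.92 CPM in IP. These 2 genes were singled out after their values were seen.

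Marker lists of other cell types also differed between the IP libraries. Markers of GABAergic neurons were highest in IP replicate 3, at 308 CPM against 133 and 184 CPM, and those of choroid plexus and ependyma stood at 42.5 CPM against 2.88 and 3.78 CPM. Cortex and hippocampus markers, at 117, 167 and 190 CPM, and striatum markers, at 89.8, 59.8 and 153 CPM, were also highest there. Midbrain and monoamine markers, at 22.6, 13.02 and 18.9 CPM, and hypothalamus markers, at 14.7, 19.6 and 9.71 CPM, were not highest there. Slc18a2 alone gave 20.8, 6.62 and 11.4 CPM of the midbrain and monoamine sums. Within that list Th, Slc6a3, En2, Fev and Tph2 were highest in IP replicate 3, Tph2 with 3 reads. Slc18a2, Ddc, En1 and Foxa1 were not, and Foxa2 and Slc6a4 had 0 reads in IP. The part of any of these cell types, or of the lane, in the values of IP replicate 3 was not tested.

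**Figure D4:**
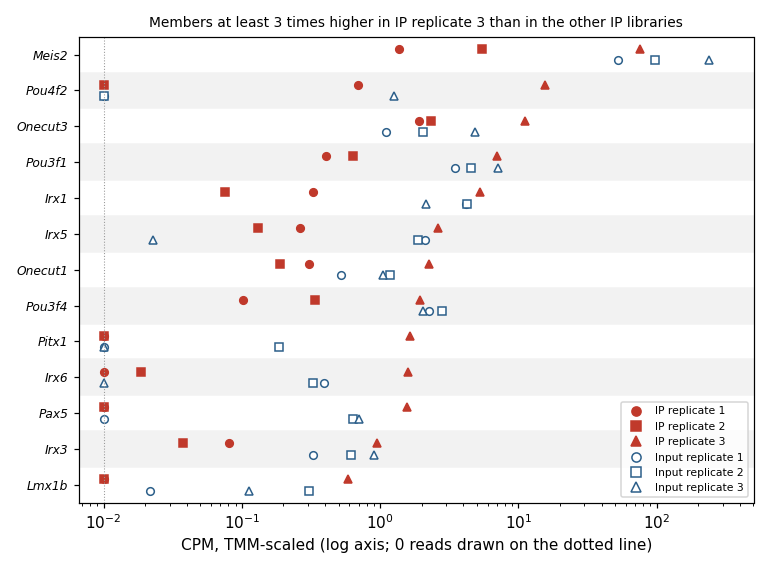
CPM on a log axis, by library, of 13 of the 14 members that were at least 3 times higher in IP replicate 3 than in either other IP library; filled red symbols are IP, open blue symbols Input, and libraries with 0 reads are drawn on the dotted line. The filled triangle of IP replicate 3 lies to the right of the filled circle and square in each row, at 75.2 CPM for Meis2.

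Levels of different genes were compared only per kilobase of exon, for the 21 members with a mean of at least 10 CPM in a group. In IP, Zic1 stood first at 78.2 ± 23.0 CPM per kb (SD, n = 3), and its libraries overlapped those of no other member. Zic2 stood at 34.5 ± 9.47 CPM per kb, overlapping Zfhx3, at 26.0 ± 2.79. Pbx2 stood at 19.3 ± 2.53 CPM per kb, apart from its neighbours in the order. From Cux1 at 13.2 ± 1.71 and Meis3 at 12.9 ± 1.64 CPM per kb downwards, each member overlapped the next down to Pou3f2 at 0.887 ± 0.459.

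In Input Zic1 stood at 42.7 ± 10.3 CPM per kb, again without overlap with the next lower member. Zfhx3 at 23.3 ± 6.26 and Zic2 at 18.0 ± 3.95 CPM per kb overlapped each other, and Pbx2 followed at 11.2 ± 1.87. Onecut2 stood in the twentieth place among the 21 members ordered in IP, at 1.20 ± 0.376 CPM per kb, and in the twelfth in Input, at 6.58 ± 0.298.

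**Figure D5:**
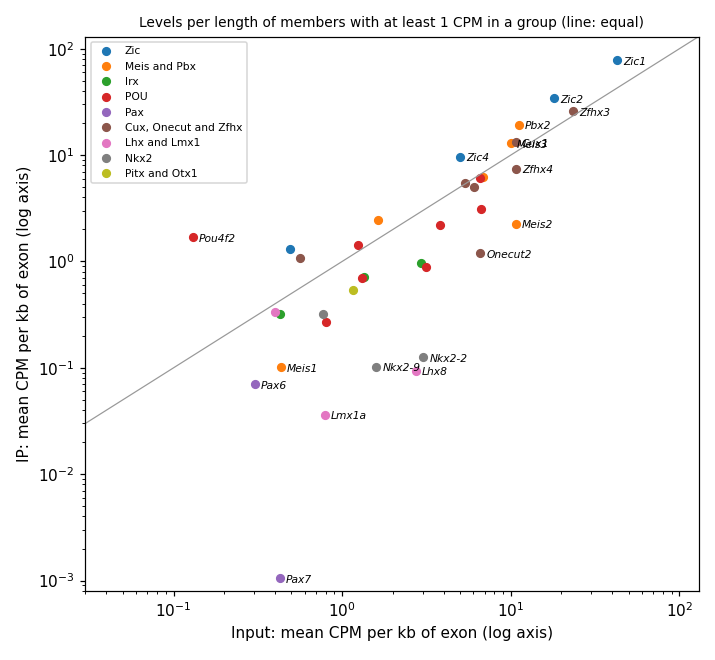
Mean CPM per kb of exon in Input (horizontal, log axis) and IP (vertical, log axis) for the members shown, with at least 1 CPM in a group and reads in IP; colours give the gene groups and the line equal levels. Zic1 lies at the upper end above the line, and Lhx8 and Nkx2-2 lie far below it.

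The partners of these factors moved in both directions. Of 15 partners and antagonists of TALE and LIM-homeodomain proteins, 2 were called higher and 1 lower, and 5 and 2 with the block, around a median of log2 0.32. Ldb2, which bridges LIM-homeodomain proteins, was higher by log2 1.17 ± 0.25 (edgeR adjusted p = 0.0107), with 83.4, 152 and 124 CPM in IP and 45.1, 56.7 and 58.4 CPM in Input. Lmo1, a LIM-only protein that competes for Ldb proteins, was higher by log2 1.36 (edgeR adjusted p = 0.032). Pbxip1, which binds Pbx proteins and blocks their binding to DNA, was lower, with a log2 fold change of -2.25 (edgeR adjusted p = 0.009).

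Of 5 genes of the Groucho family, Aes was called higher (log2 0.72, edgeR adjusted p = 0.038) and none lower without the block. With the block Tle4 was called lower, at log2 -0.65 (edgeR adjusted p = 0.0189). The Gli genes, relatives of the Zic genes, went the opposite way from Zic1 and Zic2. Of 6, 4 were called lower and none higher, namely Gli1, Gli2, Gli3 and Glis3, with log2 fold changes of -4.60, -2.77, -3.12 and -1.98 (edgeR adjusted p between 0.00578 and 0.00809). Gli3 had 1.60, 1.90 and 3.84 CPM in IP and 12.8, 12.4 and 38.9 CPM in Input. Of 35 other regional homeobox genes, 22 were tested, 2 were called higher and 9 lower, and the median log2 fold change was -2.57. Lhx2 and Lhx9, factors of the thalamus itself, were the higher ones, at log2 2.02 ± 0.19 and 0.76 ± 0.23 (edgeR adjusted p = 0.00033 and 0.0439). Six3, Otx2 and Lhx6, of ventral forebrain and of midbrain, were lower, at log2 -4.24, -2.82 and -3.59 (edgeR adjusted p = 0.00033, 0.00256 and 0.00397). The Hox genes, which pattern hindbrain and spinal cord, held 39 rows and 0 tested genes, and their summed level was between 0.114 and 0.609 CPM in each library.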

How the data were processed

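RNA of mouse thalamus was sequenced in 3 IP and 3 Input libraries, grouped by the sample titles. Each library has a deposited table of raw read counts by gene. Per the submitters' processing notes, STAR 2.0.0e, HTSeq and mm10 were used. No annotation, counting mode or strand setting is given in the sources used here. Summary rows (between 7661660 and 16408095 reads without a feature per library, and ambiguous and multiply placed reads) stayed out of library sizes and tests.

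The 66 members, the gene lists and the rule for named genes (members called with or without the block or with a mean of at least 1 CPM in a group, and up to 3 called genes of each other list) were chosen with earlier results of these data known. Some members are counted but not reported here by name. Genes were filtered with filterByExpr by group (a cutoff of 0.2012 CPM) and scaled with TMM factors, which also underlie the CPM. The model of group alone was tested by quasi-likelihood in edgeR 4.0.16 (R 4.3.3). Tests were two-sided, and p-values were adjusted by Benjamini-Hochberg over 16496 genes, with a threshold of 0.05. An SE is that of a log2 fold change. The script was tested on simulated data. Of the tested members, 33 were above the cutoff in all 6 libraries, and 2 through Input alone.

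The replicate numbers in the titles were taken to pair the libraries, since the deviations of an IP library from its group mean correlated with those of the Input library of the same number. This correlation over genes was 0.271 for number 1, 0.113 for number 2 and 0.141 for number 3, each over 0.1. The fit without the replicate block is the main one, as no paired test is stated, and blocked values stand beside results they change. Alternatives were other scalings and filters, DESeq2 1.42.0, limma-voom (limma 3.58.1), leaving out features named by clone accessions, and leaving out each library or number. The block without replicate 3 was added after seeing the data.

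Positions and exon lengths are from GENCODE M21 (GRCm38), in which all 66 symbols matched. Exons of 23 members overlap those of another gene, of which 11 have such a gene with a row of its own. Start-site windows are from RefSeq (GRCm38.p6), which held 45 of the members.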

Additional observations from a re-analysis of the deposited data

How the results depend on the processing

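Without the replicate block 3 members were higher and 8 lower in IP. The replicate block gave 6 and 14, with 2624 genes higher and 3163 lower among all tested. The same block without replicate 3 was chosen after seeing the data and had few residual degrees of freedom. It gave 6 of 45 members higher (13.3%, against 3026 of 17039 genes, 17.8%) and 21 lower (46.7%, against 3794 genes, 22.3%). The block ended the call of Pax8 alone, added 10 calls and changed no other. Library totals gave 1 higher member, with the other counts of scaling, filter, DESeq2 and limma-voom within 1.5 times. Leaving out 1 library or 1 replicate number moved the members higher between 0 and 3 and the members lower between 3 and 18, and over all genes the higher between 83 and 1640 and the lower between 651 and 2598. The count of 0 in edgeR came without IP replicate 2, Input replicate 2 or both, where 3, 5 and 2 members were higher at an unadjusted p under 0.05; DESeq2 and limma-voom, run on all libraries, each called 4. All 8 lower members kept their direction in each of these fits that tested them, as did the 3 higher ones. For Pax3 and Pax8 this is no support, since they passed the filter through Input alone and could only come out as lower.

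Signs turned only among members not called without the block. Pou4f2, among them, was called with it. Cux2 became -0.024 with library totals, -0.066 with upper-quartile factors, -0.026 with a 1 CPM filter and -0.0695 with the block without replicate 3. The block and limma-voom gave -2.24 and -0.57 for Irx6, 0.010 and 0.026 for Lhx5, and -1.68 and -1.65 for Pax5. The block without replicate 3 gave -4.94 for Irx6, 0.15 for Lhx1, -0.0009 for Pou2f2 and -0.0086 for Zfhx3. Over the fits that leave out libraries, log2 fold changes ran from -0.070 to 0.10 for Cux2, -3.31 to 0.54 for Irx5, -4.88 to 2.28 for Irx6, -1.02 to 0.27 for Lhx1, -1.09 to 0.92 for Lhx5, -1.89 to 0.69 for Onecut1, -0.34 to 1.72 for Onecut3, -7.44 to 1.14 for Pax5, -0.42 to 0.088 for Pbx3, -0.16 to 0.52 for Pou2f2, -0.28 to 11.10 for Pou4f2, -0.31 to 0.087 for Pou6f1 and -0.038 to 0.30 for Zfhx3. Except where fewer libraries are the setting itself, the cause was not tested. Depth limits the members below about 1 CPM, where a few reads decide the fold.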
